A study of Mus musculus with 16 samples.

Results

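The genes described here encode receptors that nerve cells use to sense transmitters and extracellular nucleotides. Membership went by gene symbol, under a rule set with earlier results of these data known. The symbols covered subunits of GABA-A and GABA-B receptors and of the AMPA, kainate, NMDA and delta glutamate receptors. They also covered metabotropic glutamate receptors, nicotinic and muscarinic acetylcholine receptors, glycine receptors, type 3 serotonin receptors, and the P2X and P2Y receptors. On the array, 82 of 17914 genes had such a symbol, with 129 of its 25697 probes. RNA came from spot cultures of dorsal root ganglia (DRG), which hold the cell bodies of sensory neurons. The ganglia were those of embryonic day 13 mice of the CD-1 strain. On day 4 in culture a lentivirus was added that carried a control short hairpin RNA, a MISSION hairpin RNA against the hypoxia-inducible transcription factor HIF-1α (knockdown), or human HIF-1α in the FUGW vector (overexpression). Axons were severed by blade (axotomy) on day 7, and injured cultures were collected after 3 h or 12 h. Uninjured cultures came from day 7 as well. There were 6 control, 6 knockdown and 4 overexpression arrays, 2 in each of 9 groups except for 1 each of uninjured and 12 h overexpression cultures. All groups thus carried a lentivirus, the only control was a hairpin virus and not an empty FUGW vector, and the labels do not say whether arrays came from separate cultures. The p-values therefore reflect array-to-array spread that may be technical only, and a batch of cultures or virus cannot be told apart from the construct.

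Receptors of this kind fall into ion channels, which open when a transmitter binds and are built from several subunits, and receptors that signal through G proteins. Sensory neurons of the DRG form no synapses on their cell bodies in the ganglion, but carry these receptors on the soma, on axons, at peripheral endings and at central terminals, where the receptors adjust excitability and transmitter release. The ATP-gated channel P2X3 and the kainate receptor subunit GluK1 are well known in nociceptors, the neurons that detect painful stimuli. HIF-1α binds DNA together with its partner ARNT at short core motifs in the regulatory regions of its target genes.

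The deposited probe intensities were used as given and ran from -21.7 to 40784.5, with values below 0 where background had been subtracted. An intensity of 16, which is 2.49 times the standard deviation of the background, was taken as the limit of detection, and a gene was tested if a probe exceeded 16 on at least 2 of 16 arrays. The share of probes above 16 was 47.8% to 47.9% on every array. Of the 82 receptor genes, 49 passed. All further differences are on a log2 scale after normexp background correction with 50 added and quantile normalization, which understates changes of dim genes. Differences between constructs are averages over the 3 times from limma, and a gene is called where p, adjusted by the Benjamini-Hochberg method over all 11151 genes tested, is below 0.05.

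Of the AMPA and kainate receptors all genes on the array were tested, and of the NMDA receptors 2 of 6. Of the 49 tested genes 18 were above 16 on all arrays, and another 18 were above 16 on fewer than 8 arrays. Of the latter, 7 were above it on exactly 2. A gene above 16 in 1 construct only was tested because of those arrays, which favours a call for it. Among the brightest tested probes were those of Gria2 (the AMPA subunit that limits calcium entry), Grik1 (which encodes GluK1) and P2rx3 (which encodes P2X3), with means over all arrays of 1386, 1359 and 858. Probes differ in how strongly they bind, so these means do not rank the transcripts. The 33 genes not tested included 29 above 16 on no array and 4 above it on 1 array. Their highest intensity was 23.7, for P2rx2, which encodes the usual partner of P2X3. Among those never above 16 were the NMDA subunit genes Grin2a, Grin2b and Grin2d, the nicotinic subunit genes Chrna5 and Chrnb4, and the glycine receptor gene Glra1. A transcript below this limit was not detectable with these probes, which does not show that it is absent.

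Markers of the cell types in the cultures differed between constructs. All 10 sensory neuron markers on the array were tested, and their summed intensity was 37525 to 41971 on control arrays, 20045 to 22495 on knockdown arrays and 29921 to 34999 on overexpression arrays. Calca and Prph, which fell in knockdown (-2.09 and -1.38), were the brightest in control, with means of 15422 and 9512, whereas Isl1 and Tlx3 rose (0.97 and 0.86). By count 2 of the 10 rose and 5 fell in knockdown, and 2 rose and 6 fell in overexpression. Of all genes tested, 31.3% rose and 28.3% fell in knockdown, and 25.8% rose and 29.4% fell in overexpression. The counts of the other markers below stand against the same shares, and whether any marker list departs from them was not tested. The summed level of 8 fibroblast markers was 4277 to 4823 in control, 6894 to 8608 in knockdown and 3231 to 3611 in overexpression cultures. Most of this sum was Vim, with means of 4428, 7344 and 3186, while Col1a1 and Lum were above 16 on no array. Of the 5 tested, 4 rose and 1 fell in knockdown, and 1 rose and 3 fell in overexpression. Twist2 went against the sum in both constructs (-0.42 and 1.20). Skeletal muscle markers summed to 174 to 230.3 in control, 737 to 970.3 in knockdown and 225 to 308 in overexpression cultures. Most of this was Acta1 (means 99.1, 527 and 90.7) and Tnnt1 (92.2, 311 and 136). Myog was not called in knockdown (-0.13), and Myod1, Ckm and Actc1 were above 16 on no array. Macrophage markers summed to 80.2 to 119, 87.6 to 130.4 and 175 to 308 in the same order, with Cx3cr1, Itgam, Ptprc and Cd14 above 16 on no array. Most of this sum was Aif1 (means 87.4, 113 and 228), and Csf1r was not called in overexpression (0.12). Schwann cell and satellite glia markers, of which Fabp7, Cdh19 and Foxd3 were above 16 on no array, summed to 1243 to 1513, 808 to 972 and 1343 to 2420. Of the 4 tested, 2 fell in knockdown, and 1 rose and 2 fell in overexpression, so the higher top of the overexpression sum does not hold for most of these markers. Their part in the receptor differences was not tested, and in bulk RNA fewer cells of a type and less RNA per cell cannot be told apart.

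The first question was how the receptor genes differed between knockdown and control cultures. Nicotinic subunits (Chrna4, Chrnb3, Chrna3), the kainate subunit Grik1, the glycine receptor subunit Glra2 and the UDP receptor P2ry6 rose, and both type 3 serotonin receptor subunits and the GABA-B subunit Gabbr1 fell. Of 49 tested receptor genes, 15 rose (30.6%, against 31.3% of all genes tested), 13 fell (26.5%, against 28.3%) and 21 did not pass the test. In total 57.1% were called where 59.7% of all genes were. Differences of at least 2-fold made up 16.3% of the receptor genes (8 of 49) and 8.72% of all genes. The median difference was -0.01 for receptor genes and -0.00 for all genes, and the median size of a difference was 0.22 and 0.24. Standard errors for single receptor genes lay between 0.0631 and 0.0945.

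The second question was the same for overexpression of human HIF-1α. Chrna3, the AMPA subunit Gria3 and P2rx3 rose, and the serotonin receptor subunits Htr3a and Htr3b fell. In all 12 receptor genes rose (24.5%, against 25.8% of all genes), 16 fell (32.7%, against 29.4%) and 21 did not pass, which is 57.1% called against 55.3% of all genes. Differences of at least 2-fold made up 8.16% of the receptor genes (4 of 49) and 8.28% of all genes. The median difference was -0.02 for both. The knockdown and overexpression comparisons use the same control arrays, so the values of each gene are given side by side below, and the direct comparison of overexpression with knockdown, which leaves the control arrays out, was tested for each gene. There 11 receptor genes were higher in overexpression (22.4%, against 28.8% of all genes) and 17 lower (34.7%, against 34.0%), which is 57.1% called against 62.7% of all genes, and 9 of 49 (18.4%) against 13.6% of all genes differed by at least 2-fold.

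**Figure D1:**
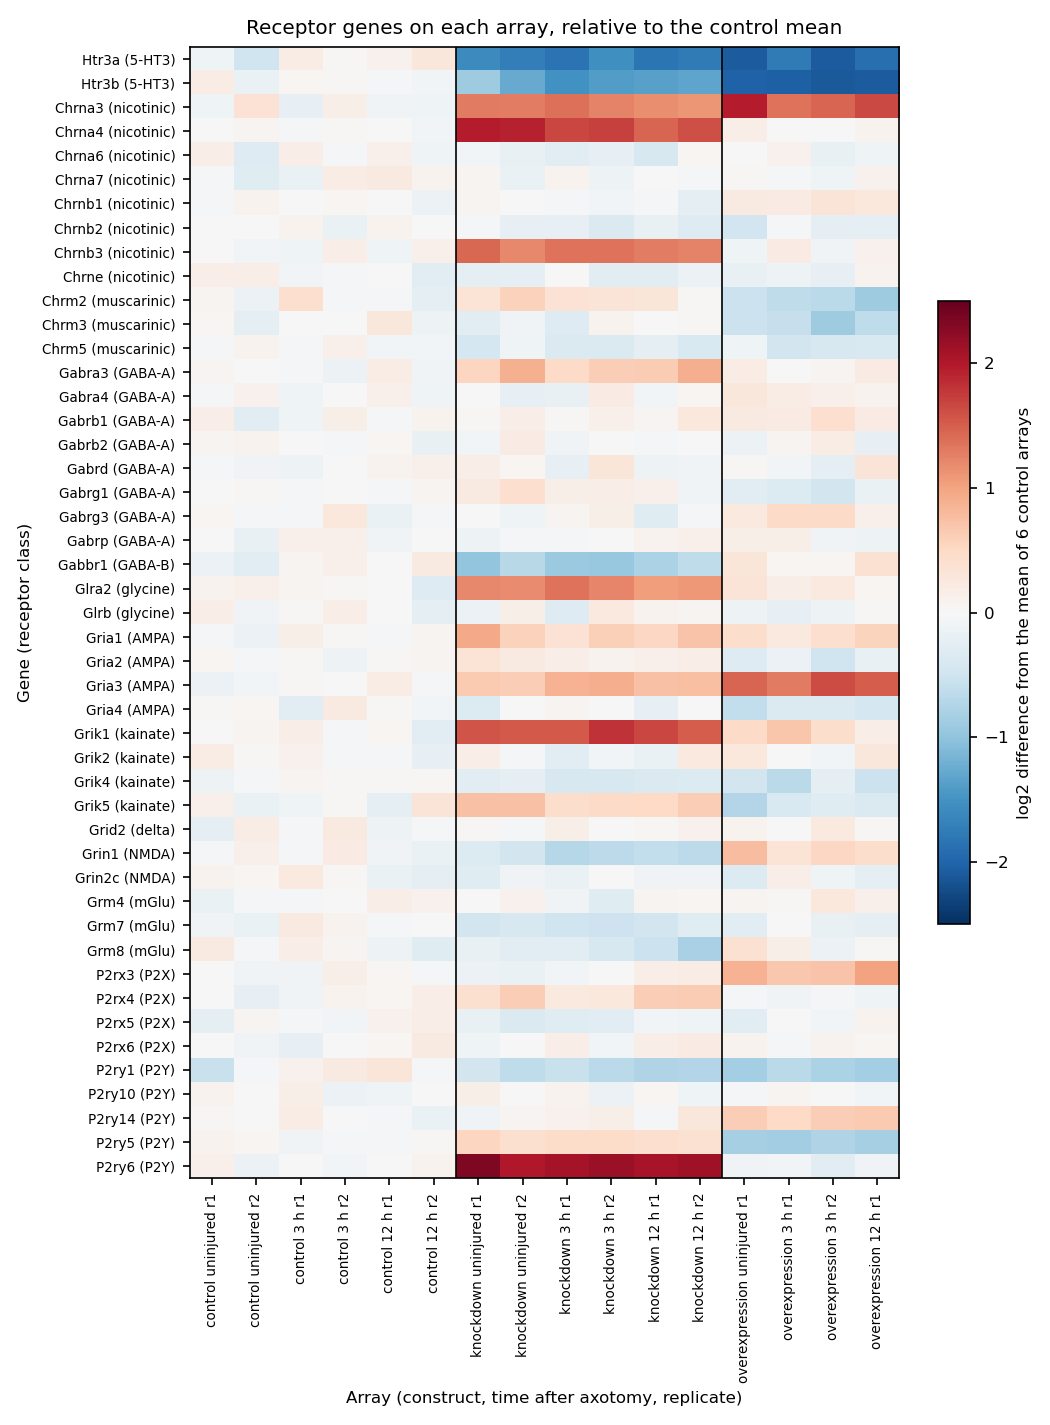
Each row is 1 of 47 tested receptor genes, ordered by class, and each column 1 of 16 arrays. Colour gives the log2 difference from the mean of the 6 control arrays, from blue (lower) to red (higher). The knockdown and overexpression blocks each hold rows of a single colour, such as the blue rows of Htr3a and Htr3b and the red row of Chrna3, whereas within a construct the columns for the 3 times look alike.

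In the gene-by-gene account that follows, the 3 intensities given for control and for knockdown are the lowest, median and highest of 6 arrays, and the 4 for overexpression stand in the order uninjured, 3 h, 3 h and 12 h. Both genes of the type 3 serotonin receptor, a serotonin-gated cation channel, fell in both constructs. Htr3a encodes the subunit needed for any functional channel, and its intensity was 156, 267 and 320.4 (lowest, median and highest) on the 6 control arrays and 21.2, 27.4 and 42.3 on the 6 knockdown arrays. On the 4 overexpression arrays Htr3a gave 8.14 when uninjured, 26.8 and 7.72 at 3 h, and 18.7 at 12 h. No array of either construct overlapped with control, and only 2 of 4 overexpression arrays exceeded 16. The difference of Htr3a from control was -1.72 (SE 0.0851, adjusted p = 2.49e-13) in knockdown and -1.97 (SE 0.0982, adjusted p = 4.30e-13) in overexpression. Htr3b, whose product joins Htr3a's in mixed channels, gave 307, 351 and 408 in control, 80.3, 99.2 and 160.4 in knockdown, and 36.2, 35.2, 30.6 and 31.8 on the overexpression arrays. The ranges of the 3 constructs did not overlap. Htr3b fell by 1.29 (SE 0.0775, adjusted p = 6.12e-12) in knockdown and by 2.06 (SE 0.0895, adjusted p = 4.54e-14) in overexpression. It was lower in overexpression than in knockdown by 0.77 on average (difference -0.77, adjusted p = 1.54e-07), and the difference for Htr3a, with 2 overexpression arrays under 16, was -0.25 (adjusted p = 0.0344). Htr3a and Htr3b are next to each other among the protein-coding genes of mouse assembly GRCm38.p6.

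Nicotinic acetylcholine receptors are cation channels, and 8 of their 16 genes on the array were tested. In knockdown cultures 3 rose and 2 fell, and in overexpression cultures 2 rose and 1 fell, where 59.7% and 55.3% of all genes were called. Chrna3, the α subunit of the receptors of autonomic ganglia, was close to background in control, with -6.14, -1.23 and 22.7 and 1 of 6 arrays above 16. It gave 83.7, 100.1 and 114 on the knockdown arrays and 207, 111, 124 and 153 on the overexpression arrays. All 10 arrays of the constructs thus lay above all control arrays. Chrna3 rose by 1.24 (SE 0.0823, adjusted p = 2.99e-11) in knockdown and by 1.67 (SE 0.0950, adjusted p = 3.29e-12) in overexpression. Its neighbours on the chromosome on either side, Chrna5 and Chrnb4, were above 16 on no array.

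Chrna4, the α subunit of the main high-affinity nicotine receptor of the brain, gave 51.1, 56.5 and 62.7 in control and 269, 329 and 416 in knockdown. Its overexpression arrays, at 71.5, 57.0, 55.8 and 63.3, overlapped with control and stayed below all knockdown arrays. The difference was 1.72 (SE 0.0631, 3.30-fold, adjusted p = 1.87e-15) in knockdown and 0.08 in overexpression, where the 95% interval ran from -0.07 to 0.23. Between the constructs Chrna4 differed by -1.64 (adjusted p = 3.42e-14). These values are of its brightest probe, with a mean over all arrays of 165. A second probe, with a mean of 160, gave 68.6 to 102 in overexpression and 20.6 to 64.2 in control, without overlap. In a limma fit over probes this second probe rose by 0.42 in overexpression (adjusted p = 0.000362), so the 2 probes differ on overexpression. The accessory subunit gene Chrnb3 was above 16 on all knockdown arrays (85.6, 97.3 and 112) and on no other array. Control arrays reached 7.23 at most and overexpression arrays 9.23. Chrnb3 was therefore at least 6.04-fold higher in knockdown than in control, taking the limit of 16 for control (adjusted p = 3.84e-12), and differed by 0.03 (interval -0.16 to 0.21) between overexpression and control. Chrnb3 was tested because of its knockdown arrays alone, which favours a rise there, so the adjusted p adds no support to these intensities. The next gene on the chromosome, Chrna6, which encodes a frequent partner of Chrnb3's product, was above 16 on 2 control arrays only and was not called in either construct. Chrnb2, which encodes the partner of the α4 subunit, fell slightly in knockdown (-0.22, adjusted p = 0.0128) and in overexpression (-0.28, adjusted p = 0.00703).

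Muscarinic receptors signal acetylcholine through G proteins, and 3 of 5 genes were tested. Chrm2, whose product lowers cyclic AMP, gave 34.7, 47.7 and 91.6 in control and 55.1, 82.3 and 109 in knockdown, with overlap between them. On the overexpression arrays it gave 15.4, 9.33, 7.59 and -2.69, all of them under 16 and under every other array. Chrm2 rose by 0.32 (SE 0.0847, adjusted p = 0.00256) in knockdown and was at least 3.16-fold lower in overexpression than in control (adjusted p = 3.58e-06). Chrm3, which couples to calcium release, gave 81.2, 106 and 145 in control, 70.6, 101 and 118 in knockdown, and 52.2, 48.5, 25.8 and 44.3 in overexpression. The overexpression arrays lay below all others, with a difference from control of -0.64 (SE 0.106, adjusted p = 2.78e-05), and knockdown was not called (-0.09, interval -0.29 to 0.10). The dim Chrm5 was above 16 on 2 control arrays only, and its differences were called in both constructs (-0.31 and -0.30). It was tested because of those 2 control arrays alone, which favours a fall, so these calls carry little weight.

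GABA-A receptors are chloride channels, and 10 of 16 genes were tested. In knockdown 2 rose and 1 fell, where 59.7% of all genes were called, and in overexpression 2 rose and 3 fell, where 55.3% were. Gabra3, an α subunit gene, gave 27.0, 36.3 and 52.3 in control, 79.2, 94.0 and 129.9 in knockdown, and 51.1, 37.7, 43.0 and 52.9 in overexpression. It was higher on all knockdown arrays than on any other (0.68, adjusted p = 1.61e-07) and was not called in overexpression (0.14, adjusted p = 0.203). Gabrg1 was above 16 on 6 control, 5 knockdown and 0 overexpression arrays, and Gabrg3 on 2 overexpression arrays only. Gabrg3 is counted among the genes that rose in overexpression, but was tested because of those 2 arrays alone, which favours a rise. The other gene counted there is Gabrb1 (0.25, adjusted p = 0.0320), which was above 16 on 1 knockdown and 1 overexpression array only. Both rises thus lie near background.

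Gabbr1 encodes the subunit of the metabotropic GABA-B receptor that binds GABA. Its intensity was 249, 326 and 382 in control, 127, 145 and 181 in knockdown, and 408, 331, 331 and 431 in overexpression. All knockdown arrays lay below all others, and overexpression arrays overlapped with control. Gabbr1 fell by 0.83 (SE 0.0716, adjusted p = 2.13e-09) in knockdown and rose by 0.25 (SE 0.0827, adjusted p = 0.0154) in overexpression. By time the overexpression difference was 0.52 when uninjured, -0.04 at 3 h and 0.26 at 12 h. Overexpression stood above knockdown by 1.07 (adjusted p = 2.71e-10).

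Glycine receptors are chloride channels as well, and 2 of 5 genes were tested. Glra2, the α subunit typical of embryonic neurons, gave -2.04, 16.8 and 20.9 in control, 100.1, 117 and 139 in knockdown, and 33.6, 23.1, 28.8 and 16.9 in overexpression. The knockdown arrays lay far above the rest, and overexpression overlapped with control. Glra2 rose by 1.18 (SE 0.0687, adjusted p = 3.35e-12) in knockdown and by 0.19 (SE 0.0794, adjusted p = 0.0447) in overexpression. Glrb, the β subunit gene, which lies beside Gria2, was not called in either (0.01 and -0.09).

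AMPA receptors carry fast glutamate responses, and all 4 of their genes were tested. In knockdown 3 rose and none fell (59.7% of all genes called), and in overexpression 2 rose and 2 fell (55.3%). Gria3 gave 27.6, 36.7 and 51.4 in control, 93.2, 107 and 129 in knockdown, and 218, 189, 256 and 229 in overexpression. The 3 constructs did not overlap, and overexpression was highest. Gria3 rose by 0.76 (SE 0.0708, adjusted p = 6.87e-09) in knockdown and by 1.48 (SE 0.0817, adjusted p = 2.09e-12) in overexpression. It stood higher in overexpression than in knockdown by 0.72 (adjusted p = 1.12e-07). These values are of its brightest probe. Its other probes were dim, each above 16 on 3 arrays. They were not called in overexpression (0.07 and 0.05), and only the first of them was called in knockdown (0.28 and 0.07). Gria1 was dim in control, with 11.6, 20.2 and 29.1, and gave 46.0, 64.4 and 102 in knockdown and 50.8, 36.0, 49.2 and 61.3 in overexpression. Both constructs lay above control without overlap (0.62, adjusted p = 5.97e-07, and 0.44, adjusted p = 0.000327).

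Gria2, which encodes the subunit that limits calcium entry, gave 1259, 1398 and 1439 in control, 1472, 1552 and 1759 in knockdown, and 1085, 1230.4, 957 and 1200.1 in overexpression. The ranges of the constructs did not overlap on this probe. Gria2 fell by 0.28 in overexpression (SE 0.0821, adjusted p = 0.00703) and was lower there than in knockdown by 0.46 on average (difference -0.46, adjusted p = 4.41e-05). A second probe of Gria2, above 16 on all 16 arrays, also fell in overexpression (-0.46) but stood at 0.01 in knockdown (adjusted p = 0.970). There its control (296 to 398) and knockdown (274 to 438) arrays overlapped. The tested probe's knockdown difference of 0.19 (SE 0.0711, adjusted p = 0.0282) depended on the arrays kept as well. It was no longer called, at 0.16 to 0.18 with adjusted p from 0.0592 to 0.0817, when control uninjured replicate 2, control 3 h replicate 2, control 12 h replicate 1, knockdown uninjured replicate 1, knockdown 3 h replicate 1 or knockdown 12 h replicate 2 was left out. Gria4 was above 16 on 4 control, 4 knockdown and 0 overexpression arrays and was at least 1.25-fold lower in overexpression than in control (adjusted p = 0.000295).

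Kainate receptors are the third kind of glutamate-gated channel, and all 4 genes on the array were tested. Grik1 gave 574, 716 and 799 in control, 2110.0, 2184 and 2604 in knockdown, and 999, 1175, 972 and 795 in overexpression. Every knockdown array lay above every other array, while 1 of 4 overexpression arrays overlapped with control. Grik1 rose by 1.60 (SE 0.0788, 3.03-fold, adjusted p = 2.28e-13) in knockdown and by 0.40 (SE 0.0910, adjusted p = 0.000757) in overexpression. The overexpression call was lost when its probes were averaged (0.16, adjusted p = 0.0569), its dim second probe standing at -0.07. Grik5, whose product raises the affinity of kainate receptors but forms no channel alone, gave 151, 181 and 249.7 in control, 279, 307 and 357 in knockdown, and 86.7, 128, 138 and 131 in overexpression. The constructs did not overlap, with knockdown highest and overexpression lowest. Grik5 rose by 0.59 (SE 0.0842, adjusted p = 3.56e-06) in knockdown, fell by 0.48 (SE 0.0972, adjusted p = 0.000279) in overexpression, and differed between the constructs by -1.06 (adjusted p = 4.29e-09). Grik4, which encodes a similar auxiliary subunit, fell in both constructs (-0.33, adjusted p = 0.000424, and -0.48, adjusted p = 4.41e-05).

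NMDA receptors need the subunit that Grin1 encodes, and only Grin1 and Grin2c of 6 genes were tested. Grin1 gave 45.4, 55.1 and 77.0 in control, 9.70, 14.2 and 31.4 in knockdown, and 147, 90.9, 112 and 103 in overexpression. The constructs did not overlap, with knockdown lowest and overexpression highest, and 2 of 6 knockdown arrays exceeded 16. Grin1 fell by 0.57 (SE 0.0693, adjusted p = 3.49e-07) in knockdown, rose by 0.54 (SE 0.0800, adjusted p = 6.07e-06) in overexpression, and differed between the constructs by 1.12 (SE 0.0800, adjusted p = 8.36e-11). The difference from control by time was -0.45, -0.75 and -0.51 in knockdown and 0.72, 0.35 and 0.57 in overexpression, for uninjured, 3 h and 12 h cultures. Grin2c, which encodes a glutamate-binding subunit, was not called in either (-0.13, adjusted p = 0.148, and -0.18, adjusted p = 0.0699).

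The promoters of Grin1, which fell in knockdown and rose in overexpression, and of Chrna3, which rose, and Htr3b, which fell, in both constructs, are printed to show whether the letters of the HIF core motif lie near the start. Each sequence is from RefSeq on GRCm38.p6 and spans 250 bases before to 50 bases after the start of the gene. It reads 5′ to 3′ in the direction of the gene, and each of these genes lies on the minus strand of its chromosome. Capitals mark ACGTG or GCGTG on either strand, with overlapping matches merged into 1 stretch. The windows lie at chr2:25319138-25319437, chr9:55026513-55026812 and chr9:48964941-48965240.
Grin1: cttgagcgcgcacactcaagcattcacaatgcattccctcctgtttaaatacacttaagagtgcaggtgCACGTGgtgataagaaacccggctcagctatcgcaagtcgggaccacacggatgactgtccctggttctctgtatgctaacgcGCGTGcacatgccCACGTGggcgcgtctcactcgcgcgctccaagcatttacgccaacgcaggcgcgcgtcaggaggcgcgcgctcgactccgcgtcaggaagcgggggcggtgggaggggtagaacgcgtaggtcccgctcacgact
Chrna3: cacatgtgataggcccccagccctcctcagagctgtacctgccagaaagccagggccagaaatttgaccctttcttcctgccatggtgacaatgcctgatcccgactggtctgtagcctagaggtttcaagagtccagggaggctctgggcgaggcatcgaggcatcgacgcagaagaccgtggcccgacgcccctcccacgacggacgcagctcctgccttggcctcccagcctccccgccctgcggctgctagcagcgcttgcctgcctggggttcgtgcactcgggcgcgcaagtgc
Htr3b: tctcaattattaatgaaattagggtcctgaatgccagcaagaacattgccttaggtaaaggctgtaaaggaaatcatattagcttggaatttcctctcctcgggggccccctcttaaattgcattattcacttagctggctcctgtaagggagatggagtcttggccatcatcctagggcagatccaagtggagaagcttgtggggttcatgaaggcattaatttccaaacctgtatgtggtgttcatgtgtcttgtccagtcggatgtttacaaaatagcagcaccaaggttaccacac
Grin1 had 3 stretches, which began 181, 98 and 85 bases before the start. The first and the third of them read CACGTG, which is the letters of an E-box too. Of all 32851 windows of 300 bases, 6.55% held at least 3 stretches and 43.8% at least 1. Chrna3 and Htr3b held none. RefSeq windows were found for 59 of the 82 receptor genes, and 33 of their 73 windows (45.2%) held a stretch, as did 24 of 46 windows (52.2%) of the tested genes. Gabbr1, which also fell in knockdown and rose in overexpression, had 1 stretch. Stretches were not particular to genes that changed in opposite directions. P2ry1 and Grm7, which fell in both constructs, held 2 stretches per window, and Grik4 and Chrnb2, which also fell in both, held 1. Grik5 and P2ry5, which rose in knockdown and fell in overexpression, held none. A match is a description of these letters and shows no binding.

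Metabotropic glutamate receptors signal through G proteins, and 3 of 6 genes were tested, all from the group whose products inhibit transmitter release. Grm7 gave 48.7, 59.5 and 83.6 in control, 23.2, 26.9 and 37.1 in knockdown, and 40.8, 61.0, 46.6 and 42.1 in overexpression. Knockdown lay below both others. Grm7 fell by 0.44 (SE 0.0658, adjusted p = 5.60e-06) in knockdown and by 0.20 (adjusted p = 0.0313) in overexpression. Grm8 gave 194, 262 and 312 in control, 117, 189 and 217 in knockdown, and 354, 289, 224 and 263 in overexpression. Control overlapped with both constructs, and all overexpression arrays lay above all knockdown arrays. It fell by 0.42 (SE 0.0778, adjusted p = 8.80e-05) in knockdown and was not called in overexpression (0.13, adjusted p = 0.225). Both genes were higher in overexpression than in knockdown, Grm7 by 0.24 and Grm8 by 0.55.

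P2X receptors are ATP-gated cation channels, and 4 of 7 genes were tested. P2rx3 gave 665, 699.8 and 792 in control, 627, 686 and 814 in knockdown, and 1345, 1173, 1209.5 and 1489.8 in overexpression. The overexpression arrays stood above all 12 others, among which control and knockdown overlapped. P2rx3 rose by 0.86 (SE 0.0750, adjusted p = 3.66e-09) in overexpression, while its difference in knockdown was -0.01 with an interval of -0.14 to 0.13. P2rx4, which in the spinal cord is known from microglia, gave 101, 129 and 148 in control, 160.2, 208 and 231 in knockdown, and 122, 113, 123 and 112 in overexpression. All knockdown arrays were higher than the others (0.46, adjusted p = 6.29e-06), and overexpression was not called (-0.07, adjusted p = 0.509). P2rx7, the gene beside P2rx4, was above 16 on 1 array and was not tested. The dim P2rx5 was above 16 on 4 control, 0 knockdown and 2 overexpression arrays, and was at least 1.30-fold lower in knockdown than in control (adjusted p = 0.0112).

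P2Y receptors sense nucleotides through G proteins, and 5 of 9 genes with such a symbol were tested. P2ry6, the receptor for UDP, was at background in control (4.38, 12.5 and 19.1, with 2 of 6 arrays above 16) and in overexpression (7.87, 8.03, -1.90 and 7.78). On the knockdown arrays it gave 249, 272 and 329. No knockdown array came near any other. P2ry6 rose by 2.12 (SE 0.0754, adjusted p = 1.17e-15), with 2.18, 2.15 and 2.05 at the 3 times. With 4 of 6 control arrays under 16 the size of this difference depends on how low values are treated, and it was 4.06 with the deposited values floored at 16. It was at least 17.3-fold higher in knockdown than in overexpression (adjusted p = 4.08e-15), and overexpression did not pass against control (-0.11, adjusted p = 0.283). Its neighbour P2ry2 was above 16 on no array.

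P2ry1, the ADP receptor, gave 34.9, 86.3 and 118 in control, 22.3, 28.0 and 41.2 in knockdown, and 15.7, 26.8, 19.1 and 15.7 in overexpression. The lowest control array, an uninjured one, overlapped with knockdown. P2ry1 fell by 0.64 (SE 0.0861, adjusted p = 1.57e-06) and by 0.81 (SE 0.0995, adjusted p = 5.08e-07). P2ry14, which encodes a receptor for UDP-sugars, exceeded 16 on all 4 overexpression arrays (36.4, 27.6, 36.3 and 39.0) and on no other. Control reached 8.90 and knockdown 14.4. P2ry14 was at least 2.16-fold higher in overexpression than in control (adjusted p = 2.10e-06). It was tested because of its overexpression arrays alone, which favours a rise there, so the adjusted p adds no support to these intensities. P2ry5 is an old symbol of Lpar6, a receptor for lysophosphatidic acid and not for nucleotides. It gave 81.9, 92.6 and 101 in control, 140.0, 149 and 163 in knockdown, and 22.1, 20.4, 27.3 and 22.1 in overexpression. The constructs did not overlap, with knockdown highest and overexpression lowest. P2ry5 rose by 0.44 (SE 0.0633, adjusted p = 3.29e-06) in knockdown, fell by 0.83 (SE 0.0731, adjusted p = 3.99e-09) in overexpression, and differed between the constructs by -1.27 (adjusted p = 2.28e-12).

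**Figure D2:**
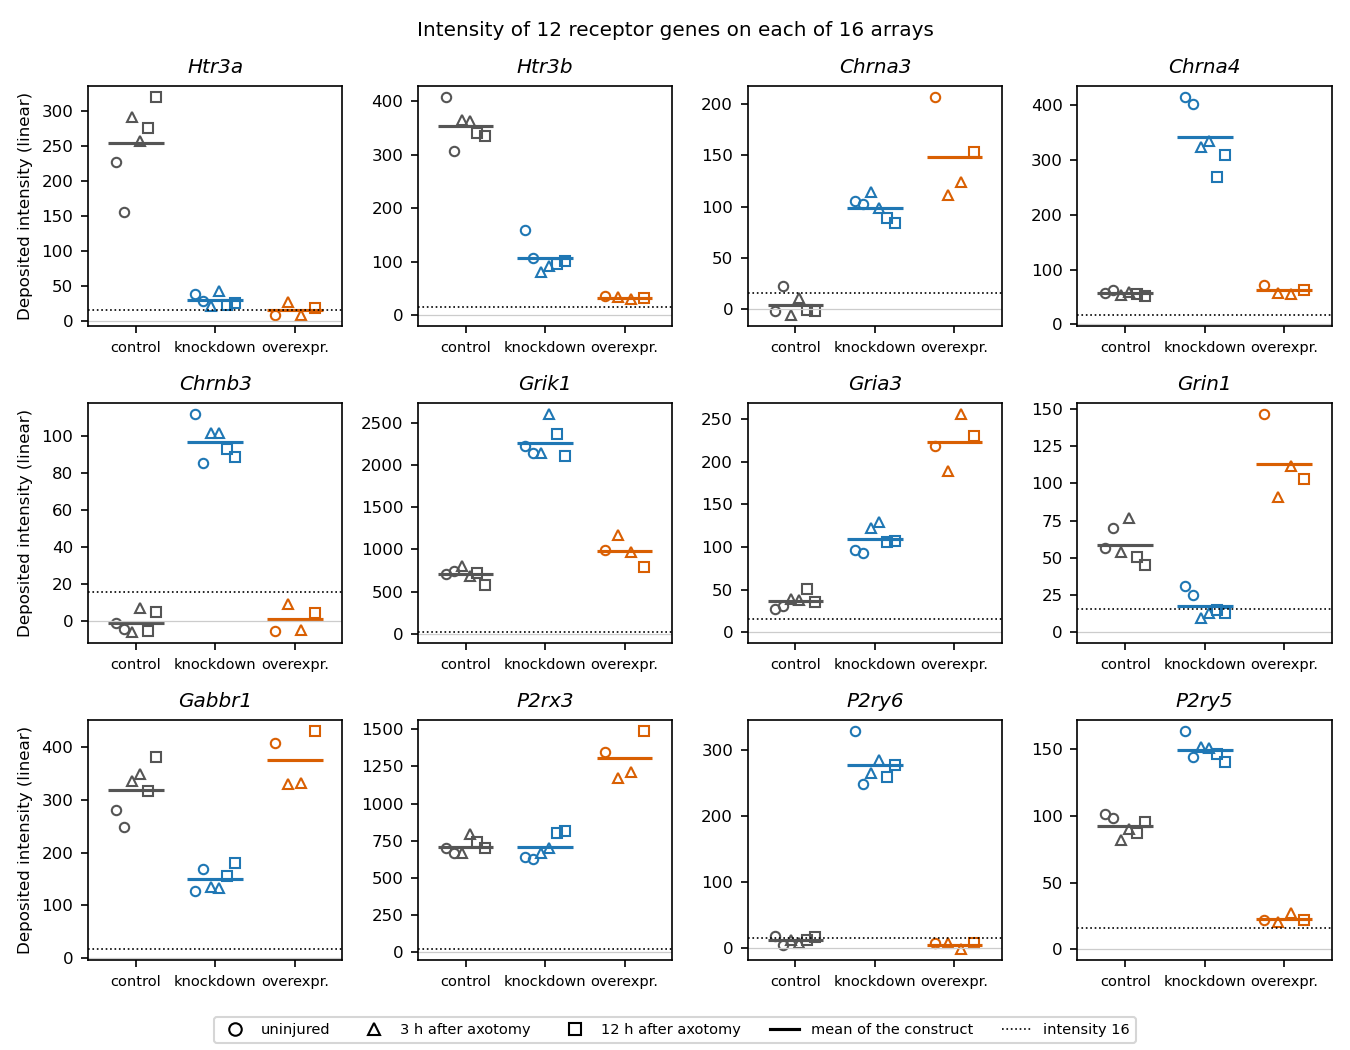
Deposited intensities (linear scale) of 12 receptor genes are shown for each array by construct, with symbols for the time after axotomy, a bar for the mean of a construct and a dotted line at 16. Knockdown arrays of P2ry6 lie at 249 to 329 and those of Grik1 at 2110.0 to 2604, above all other arrays. Overexpression arrays lie above all others for Gria3, Grin1 and P2rx3.

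**Figure D3:**
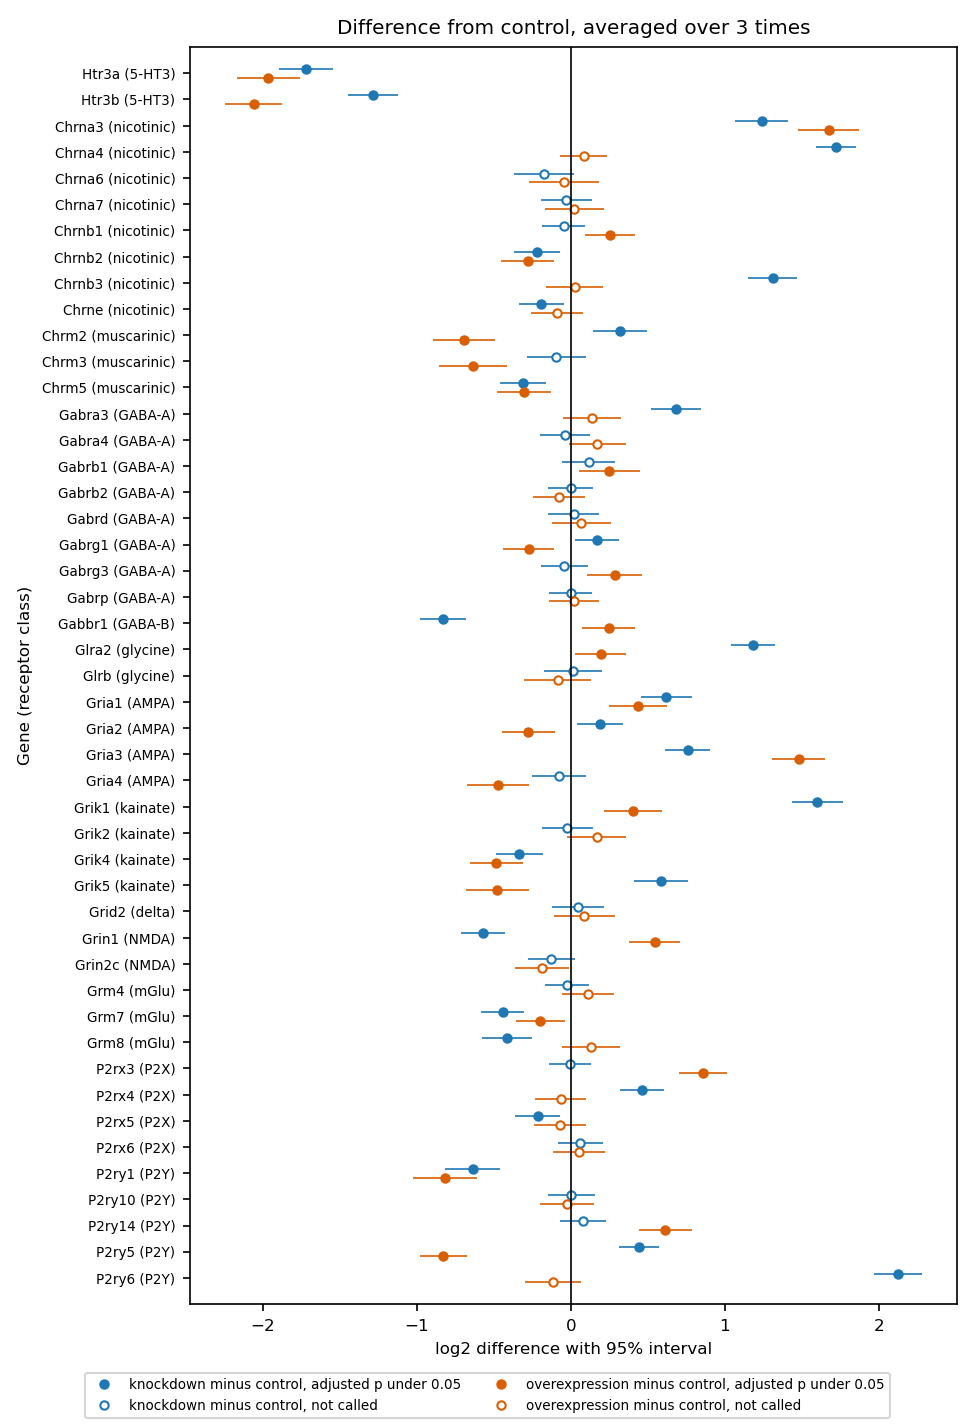
For each of 47 receptor genes the point gives the difference from control on the log2 scale, averaged over 3 times, and the line its 95% interval. Blue is knockdown, orange is overexpression, and filled points have an adjusted p under 0.05. Points range from -2.06 (Htr3b in overexpression) to 2.12 (P2ry6 in knockdown), and most genes lie within 1 of 0.

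Several genes had more than 1 probe, which allowed a check on the same arrays. In a fit over probes, 14 tested receptor genes had 33 probes above the limit. Genes called in knockdown had 16 further probes, of which 13 were called in the same direction and none pointed the other way. Genes called in overexpression had 13 further probes, of which 8 were called in the same direction, and 2 pointed the other way, 1 of them with a call. Chrna4's second probe rose in overexpression (0.42, adjusted p = 0.000362), where the tested one did not pass. Grik1's second probe was the one pointing the other way without a call.

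**Figure D4:**
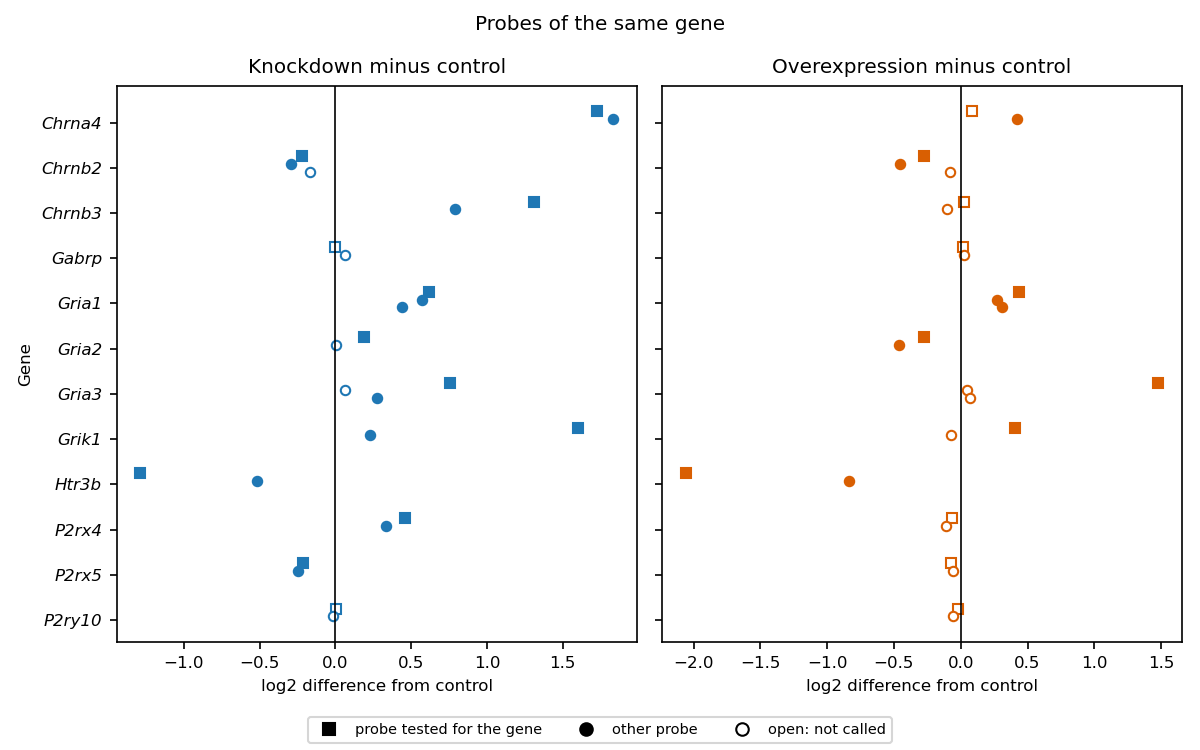
Each row is 1 of 12 receptor genes with several probes above the limit, and each point a probe at its log2 difference from control in knockdown (left) and overexpression (right). Squares are the probes tested for the gene, circles other probes, and open symbols were not called. In knockdown each of the called squares has its further points on the same side of 0. In overexpression the second probe of Chrna4 lies at 0.42 and the tested one at 0.08.

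The third question was what cutting the axons changed. No receptor gene was called by limma 3 h or 12 h after the cut, averaged over the constructs, where 0.0359% of all genes (4) and 0.538% (60) were called. At an unadjusted p below 0.05 there were 6 of 49 (12.2%) at 3 h, against 7.70% of all genes, and 9 of 49 (18.4%) at 12 h, against 12.4%. Differences ran from -0.23 to 0.19 at 3 h and from -0.37 to 0.25 at 12 h. The outermost 95% limits of any receptor gene were -0.42 and 0.37 at 3 h and -0.56 and 0.41 at 12 h, so larger average differences on this scale lie outside every interval.

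The genes with the smallest p were Grin1 and Chrna3 at 3 h (-0.20, adjusted p = 0.512, and -0.23, adjusted p = 0.523) and Grm8 and Grin1 at 12 h (-0.37, adjusted p = 0.0621, and -0.25, adjusted p = 0.178). Grm8 gave 312 and 249.9 on uninjured control arrays and 230.5 and 194 at 12 h. In knockdown it gave 217 and 202 when uninjured and 155 and 117 at 12 h, and in overexpression 354 and 263 on 1 array each. The 12 h arrays thus lay below the uninjured ones of their own construct in all 3 constructs. Grm8 passed, with an adjusted p of 0.0490 and a difference of -0.42, when control uninjured replicate 2 was left out. It passed as well with the replicate number as a block (-0.37, adjusted p = 0.0227).

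**Figure D5:**
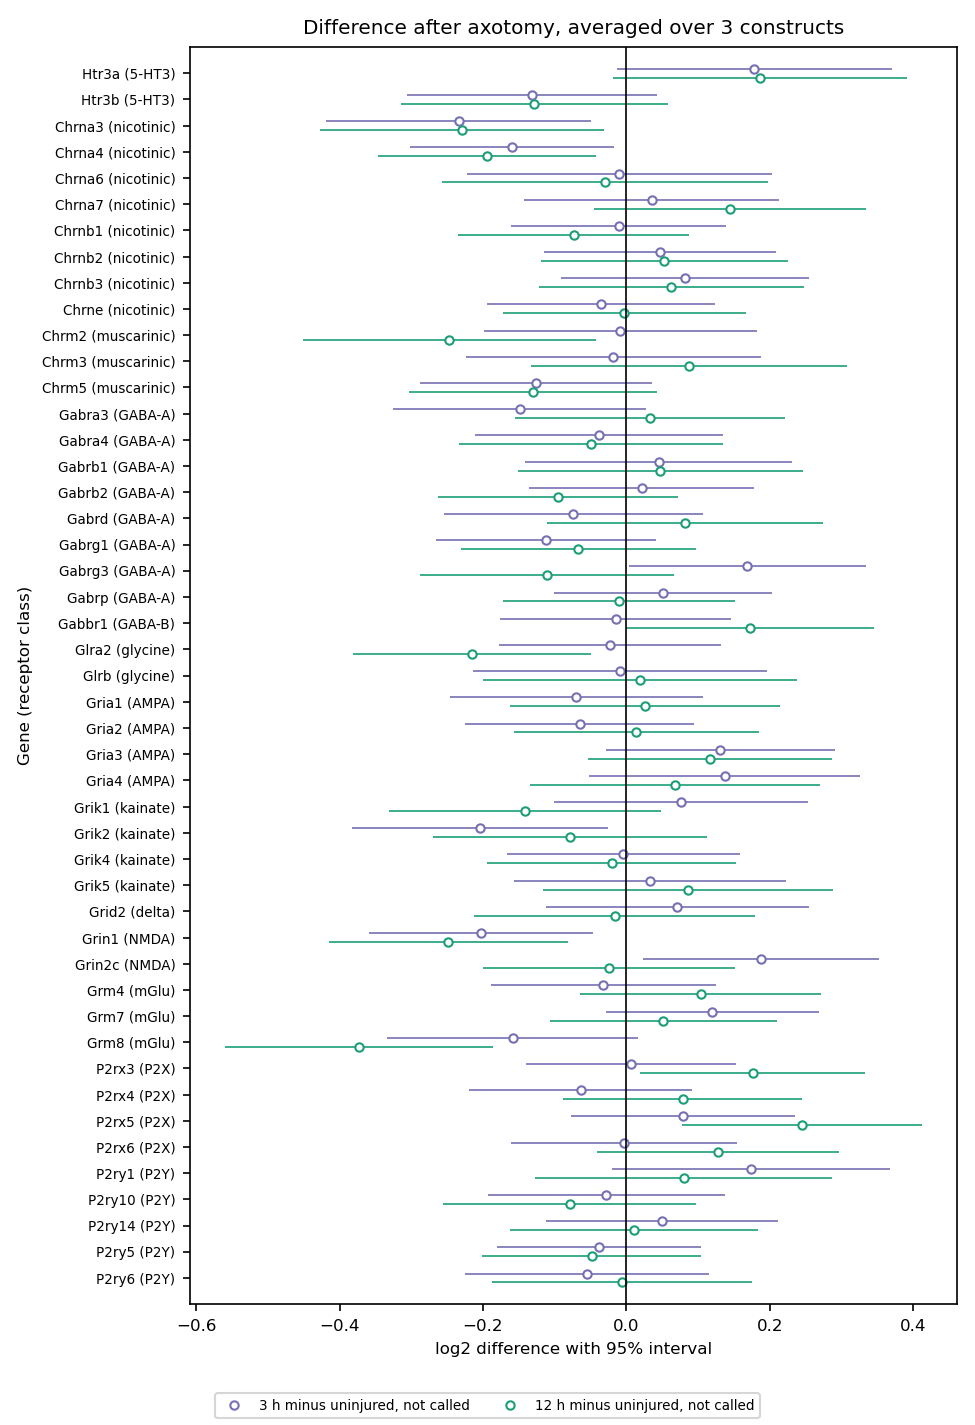
Points give the log2 difference of 47 receptor genes at 3 h (purple) and 12 h (green) from uninjured cultures, averaged over 3 constructs, with 95% intervals. All points are open because none had an adjusted p under 0.05, and they lie between -0.37 (Grm8 at 12 h) and 0.25 (P2rx5 at 12 h), a far narrower range than the differences between constructs.

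The last question was whether the response to the cut differed between constructs. By limma's F test over both times, no receptor gene and 0% of all genes were called for knockdown or for overexpression against control. At an unadjusted p below 0.05 there were 2 receptor genes for each, 4.08% of those tested against 5.81% and 5.78% of all genes. For knockdown these were P2ry1 and Htr3a (adjusted p = 0.780 for each). P2ry1 gave 34.9 and 77.8 in uninjured control cultures, 94.7 and 108 at 3 h, and 118 and 77.2 at 12 h. In knockdown it gave 41.2 and 29.3, then 34.3 and 26.8, then 22.3 and 23.0, in the same order. Both 3 h control arrays lay above both uninjured ones, and at 12 h 118 lay above them and 77.2 between them. Among knockdown arrays, 34.3 at 3 h lay between the uninjured ones and 26.8 below them, and both 12 h arrays lay below them. For overexpression they were Gabbr1 (adjusted p = 0.801) and Chrne, a subunit gene of the adult muscle receptor (adjusted p = 0.846). With 1 array for uninjured and 1 for 12 h overexpression, these tests rest on the spread of the other groups.

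Other genes of transmitter signalling, such as transporters, synthetic enzymes, scaffolds and auxiliary subunits, made up a list of 61, of which 54 were on the array and 40 were tested. In knockdown 17 rose and 13 fell (median 0.05), where 31.3% and 28.3% of all genes did. In overexpression 18 rose and 13 fell (median -0.00), where 25.8% and 29.4% of all genes did. The 4 with the smallest p in knockdown were Entpd2, an enzyme that breaks down extracellular ATP (2.16), Slc17a6, the vesicular glutamate transporter of DRG neurons (-1.55), Slc6a9, a glycine transporter (1.66), and Cnih3, an auxiliary AMPA subunit (1.49). Mean intensities in control and knockdown were 94.3 ± 13.0 and 658 ± 107 for Entpd2, and 15435 ± 785 and 5250.0 ± 664 for Slc17a6 (SD, n = 6 each). In overexpression they were Adora2b, an adenosine receptor (at least 13.7-fold higher), Cacng3, an auxiliary AMPA subunit (1.58), Slc1a2, a glial glutamate transporter (at least 9.23-fold higher), and Lynx1, an inhibitor of nicotinic receptors (-1.54). Adora2b and Slc1a2 were above 16 on overexpression arrays only and were tested because of those arrays, which favours a rise. Lynx1 rose by 1.47 in knockdown. Lynx1 was also called after the cut, at 0.62 at 3 h (adjusted p = 0.00103) and 0.60 at 12 h (adjusted p = 0.00193), and Slc6a9 at 12 h (0.47, adjusted p = 0.0101).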

How the data were processed

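RNA of 16 samples of the cultures was hybridised to Illumina Mouse Ref-8 v2.0 BeadChips. The deposited values are probe intensities, which the authors made with GenomeStudio, per the submitters' processing notes (its version: not given in the sources used here). They are on a linear scale, 27.2% of them lie below 0, as background subtraction gives, and the array medians are alike (13.3 to 13.5). Symbols came from the probe annotation deposited with a further table, whose 32 other columns of values match no label and were not used. From the deposited intensities, normexp correction (offset 50), quantile normalization and log2 values were computed, and limma 3.58.1 in R 4.3.3 fitted the means of 9 groups to genes above 16 on at least 2 arrays, taking the probe with the highest mean for each gene. Differences of construct were averaged over times and those of injury over constructs. The 11151 genes were adjusted together by the Benjamini-Hochberg method. The test was checked on simulated data. The precision rests on the number of arrays, and fits have 7 residual degrees of freedom and 13.2 from the prior. For the 2 groups with 1 array the spread is that of the groups with 2. A bound ("at least") sets the geometric mean of the brighter construct, values under 16 raised to 16, against 16.

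The members, the list of other transmitter genes, the markers and the tests were chosen with earlier results of these data known. Named were the 10 called genes with the largest difference in each construct comparison, the 2 with the smallest p where injury called none, the 4 brightest, P2rx3 and 4 of the other transmitter genes per construct, with further genes of small classes. Same-numbered arrays showed little pairing, and the labels do not say whether a number marks a shared culture or day. Over 21 pairs of groups their deviations correlated from -0.12 to 0.24 (median 0.03), with 7 over 0.1, so pairing of some arrays cannot be judged from these values. Alternatives were other background corrections, normalizations, filters, probe rules, arrays and variance models, a replicate block, and leaving out each array. A few genes are not reported here by name or drawn, and counts over all genes include them.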

Additional observations from a re-analysis of the deposited data

How the results depend on the processing

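The counts of called receptor genes between constructs stayed within 1.5 times under every alternative: 24 to 28 in knockdown, 24 to 30 in overexpression and 25 to 29 between the constructs, with 24 to 28, 24 to 28 and 26 to 29 when single arrays were left out. The counts at 3 h and in both interactions were 0 in every setting with a value. At 12 h the count was 0 to 1 over the arrays left out. It was 1 (Grm8) without control uninjured replicate 2, and 1 (Grm8) with the replicate number as a block, though the labels do not say what a number shares. Of 1081 values for single genes, 1070 kept their direction and side of the threshold, 9 lost the call, 2 gained it (Grm8) and none of these reversed. The mean of a gene's probes ended the calls of Grik1 in overexpression (0.16) and Gria2 in knockdown (0.10), and cyclic loess that of Gria2 (0.16). The overexpression interaction has no value without its only uninjured or 12 h array. Genes near 16 are limited by background.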

Other observations

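Genes that make and pack GABA, the transmitter of the GABA-A and GABA-B receptors, were looked at after their values were seen. Gad1, an enzyme that makes GABA, averaged -0.436 ± 8.92 (SD, n = 6) in control and 4.16 ± 5.40 (n = 6) in knockdown cultures, and was above 16 on all 4 overexpression arrays (83.3 ± 45.5). It was at least 4.60-fold higher in overexpression than in control. Gad2, the other enzyme that makes GABA, was above 16 on no array. Slc32a1, which packs GABA into vesicles, averaged 4.09 ± 3.71 in control and 77.3 ± 34.0 in overexpression and was at least 4.47-fold higher there. Slc32a1 was also among the motor and spinal neuron markers, whose other members Mnx1, Chat, Slc18a3, Pax2 and Lhx1 were above 16 on no array. Both differences given as bounds had a limma adjusted p under 0.05. No control array of either gene exceeded 16, and Gad1 was tested because of its overexpression arrays alone, which favours a rise. As the genes were also picked after their values were seen, these p-values are no support for the differences. The part of other cell types in the differences was not tested.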
